A study of Arabidopsis thaliana with 28 samples.

Results

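The 41 genes described here encode the late embryogenesis abundant (LEA) proteins of Arabidopsis thaliana other than the dehydrins. They were taken by locus from 8 LEA families, without the use of any measured value, and all 41 were found among the 33557 entries of the deposited table. By family they were 3 LEA_1, 3 LEA_2, 4 LEA_3, 18 LEA_4, 2 LEA_5, 6 SMP (seed maturation protein), 3 PvLEA18 and 2 AtM genes. Expression was measured by RNA sequencing in whole seedlings of the Col-0 wild type that were kept in abscisic acid (ABA) for 0.5, 1, 3, 6, 9, 12 or 24 h, against seedlings kept in an ethanol (EtOH) mock for the same 7 times. Every group had the same wild-type genotype and 2 libraries, which makes 28 libraries in 14 groups. The table gives 1 pooled value per gene and group in FPKM (fragments scaled by transcript length and by the depth of the library), and the spread between libraries could not be measured. Neither the dose of ABA nor the seedling age is stated in the labels, and they do not say whether the 2 libraries of a group came from separate cultures.

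LEA proteins are small, very hydrophilic proteins that were first found in maturing seeds, where they accumulate as the embryo prepares to dry. Most are unfolded in water and gain helical structure on drying, and several protect enzymes or membranes against drying or freezing in the test tube. ABA switches many of their genes on through bZIP factors of the ABI5 and ABF groups, which bind the ABA-responsive element (ABRE) with its core ACGTG. In seeds the factor ABI3 acts together with ABI5, and it binds the RY element CATGCA. Some LEA genes, the COR15 pair among them, are also switched on by cold through CBF factors, which bind the core CCGAC.

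The 14 pools summed to 903608 to 1173233 FPKM over all entries, and 18634 to 18930 genes reached 1 FPKM in a pool. Low values moved in steps from which a depth of 33900000 to 49000000 fragments was estimated for a pool, and this was not tested further. The leaf markers RBCS1A, CAB1 and RCA summed to 24320.3 to 60338 FPKM in the ABA pools and 21820.5 to 58463 FPKM in the mock pools, and the root markers PHT1;1, IRT1 and PRP3 to 32.9 to 143 FPKM under ABA and 50.3 to 208 FPKM in mock. The authors' deposited table calls PHT1;1 lower under ABA at 7 times and IRT1 at 6, PRP3 higher at 6, CAB1 higher at 3, RBCS1A higher at 1, and RCA higher at 1 and lower at 3. Of 6 seed storage and oil body genes, summed at 25.1 to 72.1 FPKM under ABA and 3.41 to 26.2 FPKM in mock, the authors' deposited table calls CRA1 higher at 7 times, CRU3 higher at 4 and lower at 1, OLEO1 higher at 3 and SESA1 and SESA2 at 1 each. CRU2 stayed at or under 0.151 FPKM under ABA and 0.114 FPKM in mock. The guard cell markers MYB60 and FAMA summed to 12.1 to 19.9 FPKM under ABA and 24.0 to 29.4 FPKM in mock, with MYB60 called lower at 6 times and FAMA at 2 in the authors' deposited table. The pollen genes VGD1 and VGDH1 were listed at 0 in 13 and 14 pools. What part these tissues have in the results below was not tested.

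ABA raised most of the LEA genes that seedlings expressed. Of the 41 genes, 34 reached 1 FPKM in at least 2 pools and could be tested, and 29 of these were higher under ABA when the effect was averaged over the 7 times (limma on log2(FPKM + 1), Benjamini-Hochberg adjusted p under 0.05 over all genes tested). None was lower, with 0 at an unadjusted p under 0.05 as well, since all 34 averaged effects were positive. Over all 20034 genes tested, 23.9% were higher and 23.2% were lower. The median averaged effect of the 34 genes was 2.51 on the log2 scale, beside 0.00 for all genes tested. The filter admits a gene that is expressed under ABA alone, so the 34 are not a picture of all 41. AT2G03850, AT2G18340, AT2G33690, AT2G42560, AT3G22490 and UNE15 reached 1 FPKM in no mock pool, and AT1G72100, ECP63, AT3G53040 and AT5G44310 in only 1. These genes passed the filter through their ABA pools, which favours a positive effect. All of them but AT2G03850 and UNE15 are among the 29. In whole seedlings more RNA per cell and more cells of a type cannot be told apart.

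The genes split into 3 classes by their level and by the calls of the authors. A gene was taken as induced where the authors' deposited table calls it higher at 4 or more of the 7 times and its averaged effect was at least 1 on the log2 scale, which held for 22 genes. That rule was met by 4.3% of all expressed entries. A gene was taken as silent where it stayed under 1 FPKM in all 14 pools, which held for 7 genes and for 25.7% of all protein-coding entries. The remaining 12 genes lay in between. These classes were cut from the same values, so no level is tested between them. All 3 LEA_1, both LEA_5 and all 3 PvLEA18 genes were induced, as were 12 of the 18 LEA_4 genes, 1 of 3 LEA_2 and 1 of 2 AtM genes. No LEA_3 and no SMP gene met the rule for induced genes, and 4 of the 6 SMP genes were silent. The other SMP genes, RAB28 and AT3G22490, rose by 1.73 and 1.63 in the averaged effect. They missed the rule by their number of higher calls, 3 and 0 in the authors' deposited table.

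**Figure D1:**
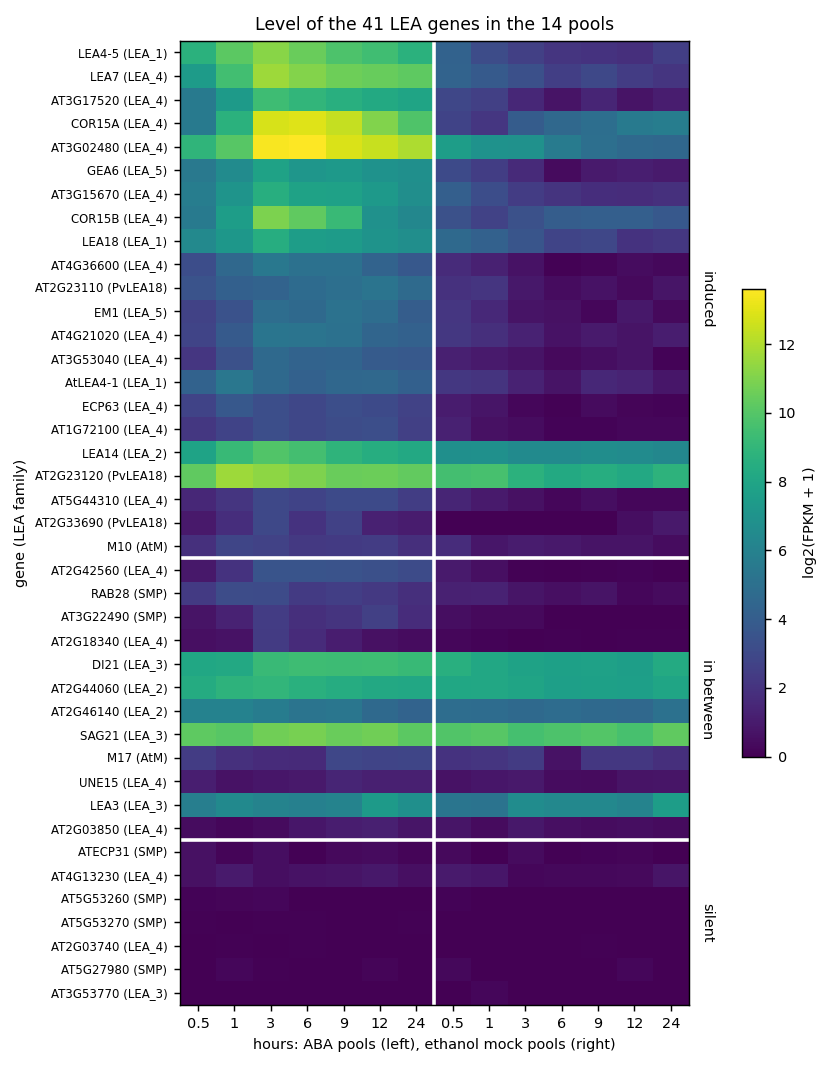
Level of each of the 41 LEA genes (rows, with the family in brackets) in the 7 ABA pools (left) and the 7 ethanol mock pools (right), coloured by log2(FPKM + 1). White lines separate the 22 induced genes, the 12 in between and the 7 silent genes, and within a class genes run from the largest to the smallest mean effect. The brightest fields are AT3G02480 under ABA at 6 and 3 h (12559 and 11527 FPKM), while SAG21 and AT2G44060 are bright in all 14 pools.

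At single times, the authors' deposited table calls 21, 27, 27, 22, 27, 25 and 22 of the 41 genes higher under ABA at 0.5, 1, 3, 6, 9, 12 and 24 h. For all entries with a value above 0, the authors' deposited table calls 8.83, 13.3, 21.2, 19, 15.1, 16 and 16.5% higher at these times. It calls 1, 0, 2, 1, 0, 0 and 2 of the 41 genes lower, against 9.7, 8.83, 17.1, 18.5, 15.7, 15.5 and 16.1% of all entries. Higher calls at all 7 times were given to 13 LEA genes in the authors' deposited table, and to 2.83% of all entries with a value. In 24 of the 34 LEA genes tested the lowest ABA pool stood above the highest mock pool, beside 7.34% of all genes tested. AT2G18340 and AT3G22490 among them reached 1 FPKM in no mock pool, and AT1G72100, ECP63, AT3G53040 and AT5G44310 in only 1. Such genes passed the filter through their ABA pools, which favours this gap. The 41 genes together took 0.438, 0.851, 3.10, 3.23, 2.27, 1.54 and 1.10% of the summed FPKM in the ABA pools, against 0.198 to 0.259% in the mock pools. This share was highest at 3 and 6 h, and at each time larger under ABA than in mock. Much of it came from AT3G02480 and COR15A. They held 11527 and 7199.7 of the 34394 FPKM of the 41 genes under ABA at 3 h. At 6 h they held 12559 and 7894 of 32345 FPKM.

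The LEA_1 family, short proteins of which LEA4-5 protects enzymes in vitro, was induced throughout. LEA4-5 (AT5G06760) stood at 409, 1154, 2377, 1443, 889, 685 and 408 FPKM in the ABA pools from 0.5 to 24 h, against 18.4, 7.97, 4.97, 3.26, 3.01, 2.61 and 4.70 FPKM in the mock pools. Its lowest ABA pool was far above its highest mock pool, and its averaged effect, 7.14 ± 0.46 (SE over 7 times; limma adjusted p = 1.64e-05), was the largest of all 34. LEA18 (AT2G35300) stood at 84.1, 146, 362, 191, 175, 127 and 105 FPKM under ABA, against 24.4, 17.5, 11.03, 5.85, 6.53, 2.92 and 3.62 FPKM in mock. The groups did not overlap, and mock was highest at 0.5 h and lowest at 12 h (averaged effect 4.08 ± 0.39, limma adjusted p = 0.00012). AtLEA4-1 (AT1G32560) was the weakest of the 3, with 17.3 to 40.6 FPKM under ABA and 0.626 to 3.65 FPKM in mock, and it rose too (3.12 ± 0.16).

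The LEA_4 family, whose short repeats form amphipathic helices, held the most abundant members and also the widest spread. LEA7 and AT3G02480 are shown with the 250 bases before their annotated start, because they were among the genes that ABA raised most. Sequences are from the RefSeq TAIR10.1 assembly, 5′ to 3′ on the strand of the gene, and capitals mark the ABRE core (ACGTG), the G-box (CACGTG), the CBF core (CCGAC) and the RY core (CATGCA) on either strand. The LEA7 stretch lies at chr1:19619474-19619723 (plus strand) and the AT3G02480 stretch at chr3:511970-512219 (plus strand).
LEA7: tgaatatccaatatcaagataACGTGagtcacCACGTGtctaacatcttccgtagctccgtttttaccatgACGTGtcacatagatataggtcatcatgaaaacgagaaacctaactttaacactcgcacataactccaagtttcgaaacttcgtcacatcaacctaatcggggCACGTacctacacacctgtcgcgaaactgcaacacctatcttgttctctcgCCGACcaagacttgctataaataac
AT3G02480: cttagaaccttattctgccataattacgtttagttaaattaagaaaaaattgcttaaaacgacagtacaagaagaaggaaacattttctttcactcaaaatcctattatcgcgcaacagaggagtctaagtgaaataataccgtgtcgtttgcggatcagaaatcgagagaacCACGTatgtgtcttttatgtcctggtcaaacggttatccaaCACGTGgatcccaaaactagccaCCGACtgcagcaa

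LEA7 (AT1G52690) stood at 174, 719, 3130.2, 2160.4, 1567, 1414 and 1211 FPKM in the ABA pools, against 19.0, 13.4, 9.20, 4.78, 6.69, 4.27 and 3.25 FPKM in the mock pools. Its level under ABA was highest at 3 h, lower at each later time and above its 1 h level at 24 h, and the groups did not overlap (averaged effect 7.07 ± 0.62, limma adjusted p = 8.22e-05). The gene overlaps AT1G52695 on the other strand by 297 bases, and the counting is not stated to use strand. AT3G02480 encodes a protein of only 68 residues and reached the highest level of all 41 genes. It stood at 486, 1072, 11527, 12559, 7324, 5684 and 3983 FPKM under ABA, against 189, 123, 116, 49.96, 29.99, 24.6 and 22.05 FPKM in mock. Its mock level was highest at 0.5 h and lower at each later time, while its ABA level peaked at 6 h (averaged effect 6.02 ± 0.83, limma adjusted p = 0.000735).

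AT3G17520 stood at 46.1, 172, 664, 498, 381, 310.0 and 248 FPKM under ABA, against 6.59, 4.96, 1.90, 0.652, 1.66, 0.668 and 1.14 FPKM in mock. AT3G15670 stood at 53.4, 132, 367, 229, 217, 165 and 106 FPKM under ABA, against 16.4, 8.31, 4.27, 3.11, 2.39, 2.32 and 2.72 FPKM in mock. Neither gene had overlapping groups, and in both the ABA level was highest at 3 h and the mock level highest at 0.5 h. The averaged effects were 6.45 ± 0.62 for AT3G17520 and 4.84 ± 0.50 for AT3G15670 (limma adjusted p = 0.00013 and 0.000184).

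COR15A and COR15B encode chloroplast proteins that protect membranes during freezing, and they lie next to each other on chromosome 2 with 7 bases between the gene models. COR15A (AT2G42540) stood at 47.5, 421, 7199.7, 7894, 5415, 2108 and 924 FPKM in the ABA pools, against 5.79, 3.40, 14.5, 23.2, 28.8, 45.9 and 53.5 FPKM in the mock pools. Mock at 24 h was above ABA at 0.5 h, so the groups overlapped, although ABA was higher at each of the 7 times (averaged effect 6.24 ± 0.69, limma adjusted p = 0.000243). COR15B (AT2G42530) stood at 45.3, 192, 1933, 1274, 607, 118 and 76.6 FPKM under ABA, against 9.43, 5.35, 9.40, 15.3, 16.4, 16.3 and 12.4 FPKM in mock. Its ABA level at 24 h was 3.96% of its highest, the smallest such share of the 22 induced genes, and that of COR15A was 11.7%. The averaged effect of COR15B was 4.48 ± 0.64 (limma adjusted p = 0.000864). No 50-base word is shared between the transcripts of the pair, but 27.3% of the words of COR15B lie in AT2G42520 on the other strand, so its values are uncertain to that extent.

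The other 6 induced LEA_4 genes stayed under 50 FPKM. In the ABA pools AT4G36600 ranged from 8.17 to 42.3 FPKM, AT4G21020 from 5.97 to 38.1 FPKM and AT3G53040 from 3.52 to 24.2 FPKM. Their mock ranges were 0.0649 to 2.14 FPKM for AT4G36600, 0.566 to 3.66 FPKM for AT4G21020 and 0.115 to 1.27 FPKM for AT3G53040. ECP63, the homologue of a carrot embryogenic cell protein, ranged from 5.41 to 12.2 FPKM under ABA and from 0.0389 to 1.08 FPKM in mock. AT1G72100 ranged from 3.70 to 8.75 FPKM under ABA and from 0.0886 to 1.42 FPKM in mock, and AT5G44310 from 1.82 to 7.47 FPKM under ABA and from 0.178 to 1.66 FPKM in mock. All 6 rose, by 1.95 ± 0.31 (AT5G44310) to 3.82 ± 0.38 (AT4G36600) on the log2 scale, and none had overlapping groups.

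The LEA_5 genes encode the Em proteins, which are best known from dry seeds, and both were induced in seedlings. GEA6 (AT2G40170, also called EM6) stood at 43.6, 94.0, 232, 139, 159, 121 and 108 FPKM in the ABA pools, against 7.31, 4.56, 2.09, 0.339, 0.981, 1.17 and 0.986 FPKM in the mock pools. Every ABA pool was above every mock pool, and the averaged effect was 5.34 ± 0.48 (limma adjusted p = 9.03e-05). EM1 (AT3G51810) reached less, with 5.44 to 33.7 FPKM under ABA and 0.189 to 3.39 FPKM in mock (3.31 ± 0.47, limma adjusted p = 0.000895). The sum of the seed storage and oil body genes, given above, ranged higher under ABA, but the ranges overlapped. It was 25.1 to 72.1 FPKM under ABA and 3.41 to 26.2 FPKM in mock, and the single genes did not move alike.

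The PvLEA18 family comprises very short proteins of 75 to 92 residues. AT2G23120 stood at 1246, 3101, 2547, 2003, 1468, 1512 and 1277 FPKM under ABA, against 744, 815, 426, 313, 359, 300.4 and 442 FPKM in mock. It was the induced gene with the highest mock level, and its groups did not overlap (1.97 ± 0.22, limma adjusted p = 0.000248). Its transcript shares 12.8% of its 50-base words with AT2G23118 on the other strand. Its neighbour AT2G23110, 475 bases away, had 10.06 to 37.3 FPKM under ABA and 0.270 to 3.28 FPKM in mock (3.50 ± 0.39). AT2G33690 ranged from 0.917 to 6.78 FPKM under ABA and from 0 to 0.938 FPKM in mock (1.59 ± 0.33, limma adjusted p = 0.0045). Its 24 h mock pool was just above its 0.5 h ABA pool, and it overlaps AT2G33685 on the other strand by 342 bases.

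In the LEA_2 family, whose proteins are folded, unlike most LEA proteins, LEA14 alone was induced. LEA14 (AT1G01470) stood at 235, 570.1, 959, 742, 465, 364 and 292 FPKM under ABA, against 109, 112, 90.7, 90.7, 102, 92.7 and 77.6 FPKM in mock. All mock pools lay below all ABA pools (2.27 ± 0.24, limma adjusted p = 0.000203). AT2G44060 was abundant in all pools, at 286 to 500.04 FPKM under ABA and 207 to 283 FPKM in mock, and rose by less (0.61 ± 0.12, limma adjusted p = 0.00368). AT2G46140 had 64.4 FPKM under ABA at 0.5 h and 19.4 FPKM under ABA at 24 h, against 28.1 FPKM and 33.0 FPKM in mock at these times. The authors' deposited table calls it higher at 0.5 to 9 h and lower at 24 h, and its averaged effect did not pass (0.56 ± 0.22, limma adjusted p = 0.0662), though it did without the 24 h pools (0.78, limma adjusted p = 0.00785).

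**Figure D2:**
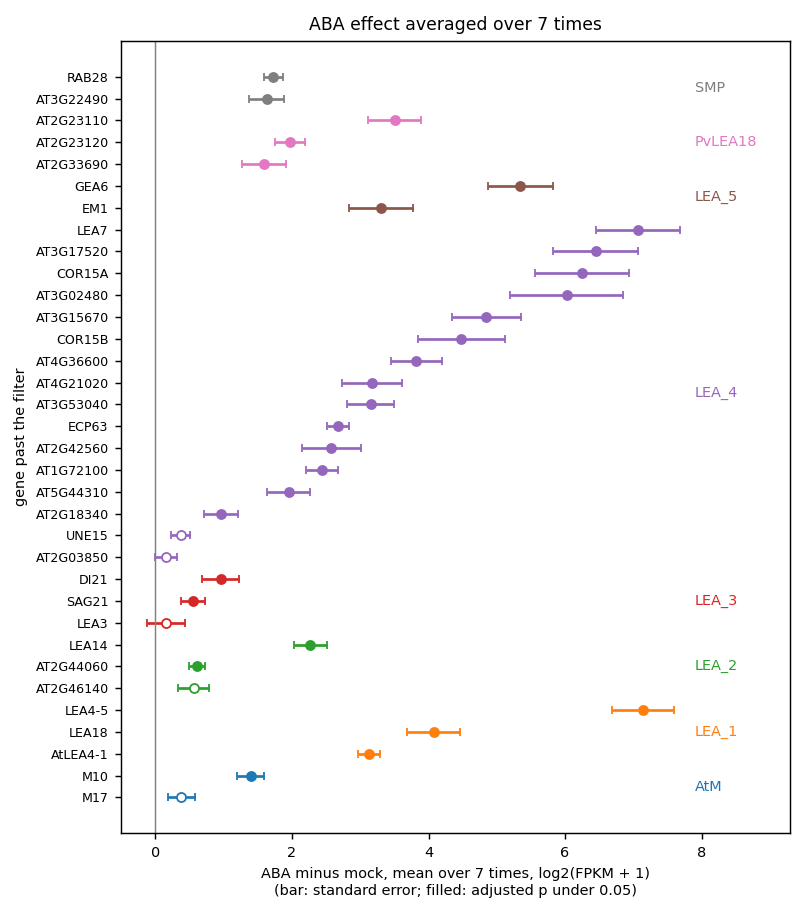
ABA minus mock effect averaged over 7 times, in log2(FPKM + 1), for the 34 LEA genes past the filter, grouped and coloured by family; bars are standard errors from the spread between times and filled points passed the test. The LEA_1, LEA_4 and LEA_5 families hold the largest effects, up to 7.14 in LEA4-5, and the 5 open points are M17, AT2G46140, LEA3, AT2G03850 and UNE15.

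In the LEA_3 family 3 of the 4 genes were expressed in mock seedlings already, AT3G53770 was silent, and none entered the induced class. SAG21 (AT4G02380), a mitochondrial protein known from senescence and oxidative stress, stood at 1205, 1078, 1631, 1839.8, 1444, 1609 and 1145 FPKM under ABA, against 965, 1082, 781, 893, 1011, 790.1 and 1243 FPKM in mock. It was higher under ABA at 3 to 12 h and close to mock at 0.5, 1 and 24 h, and the groups overlapped. Its transcript shares 14.7% of its 50-base words with the small RNA gene AT4G04125. The averaged effect of 0.55 ± 0.17 passed (limma adjusted p = 0.0283) but not when 3, 6, 9 or 12 h was left out (adjusted p 0.0618 to 0.0821) or with no filter (0.0908). DI21, a drought-induced gene, had 277 FPKM under ABA at 0.5 h and 674 FPKM under ABA at 12 h, against 382 FPKM and 198 FPKM in mock at these times. The authors' deposited table calls DI21 lower at 0.5 h and higher from 3 h on. Its averaged effect of 0.96 ± 0.28 passed (limma adjusted p = 0.0197), with the loss of the call under the same 5 settings (adjusted p 0.0532 to 0.0658).

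LEA3 (AT1G02820) was the member called lower most often. It stood at 56.5, 85.8, 66.3, 59.6, 66.6, 173 and 109 FPKM in the ABA pools, against 38.3, 35.8, 96.4, 79.7, 81.6, 67.4 and 188 FPKM in the mock pools. The authors' deposited table calls it higher at 0.5, 1 and 12 h and lower at 3, 6 and 24 h. The groups overlapped, and no averaged effect was found (0.16 ± 0.28, limma adjusted p = 0.658).

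In the SMP family, named for proteins of maturing seeds, the levels were low throughout. RAB28 (AT1G03120), the homologue of an ABA-responsive maize gene, stood at 3.95, 7.86, 7.59, 3.90, 4.67, 3.82 and 2.52 FPKM under ABA, against 1.41, 1.46, 0.732, 0.494, 0.665, 0.181 and 0.342 FPKM in mock. Its groups did not overlap and it rose (1.73 ± 0.14, limma adjusted p = 6.49e-05), but the authors' deposited table calls it higher at 3 times, so it lay outside the induced class. The remaining 5 SMP genes have no call in the authors' deposited table at any time.

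AT3G22490 and ATECP31 are SMP neighbours on chromosome 3, with 781 bases between them and the same strand, and only the first was detected at 1 FPKM. AT3G22490 stood at 0.631, 1.49, 4.35, 2.63, 3.14, 4.89 and 2.34 FPKM under ABA, against 0.427, 0.257, 0.252, 0, 0, 0.0315 and 0.0305 FPKM in mock. It rose (1.63 ± 0.25, limma adjusted p = 0.00128), with no overlap of the groups. ATECP31 (AT3G22500), named for another carrot embryogenic cell protein, stood at 0.508, 0.148, 0.415, 0.0645, 0.278, 0.316 and 0.142 FPKM under ABA, against 0.260, 0, 0.296, 0.0630, 0.0804, 0.121 and 0 FPKM in mock. Its ABA pool was above its mock pool at each of 7 times, all under 1 FPKM. AT3G22490 is shown with the 250 bases before its start, as the SMP gene that rose without a call, marked in the same way, at chr3:7970844-7971093 (minus strand).
AT3G22490: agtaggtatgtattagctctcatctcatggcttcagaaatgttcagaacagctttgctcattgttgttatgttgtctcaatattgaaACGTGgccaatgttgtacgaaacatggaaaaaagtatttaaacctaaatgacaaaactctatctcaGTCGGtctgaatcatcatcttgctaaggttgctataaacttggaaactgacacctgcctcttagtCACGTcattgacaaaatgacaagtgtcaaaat

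The AtM pair, M17 and M10, lies 1998 bases apart on chromosome 2. M17 (AT2G41260) stood at 4.26, 2.65, 2.23, 2.13, 6.39, 5.85 and 6.11 FPKM under ABA, against 2.96, 3.30, 4.23, 0.593, 3.63, 3.62 and 2.61 FPKM in mock. It was lower than mock at 1 and 3 h and higher at the other 5 times, and its averaged effect did not pass (0.38 ± 0.20, limma adjusted p = 0.149), though it did without 3 h (0.56, limma adjusted p = 0.0277). M10 ranged from 2.58 to 6.25 FPKM under ABA and from 0.377 to 2.37 FPKM in mock, with no overlap, and it rose (1.40 ± 0.20, limma adjusted p = 0.000837). The difference between the neighbours was not tested.

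The 4 LEA_4 genes in between were low. AT2G42560 had 0.857 to 10.6 FPKM under ABA and 0.0128 to 0.977 FPKM in mock and rose (2.58 ± 0.43, limma adjusted p = 0.00175), with 2 higher calls in the authors' deposited table. AT2G18340 had 0.359 to 4.15 FPKM under ABA and 0 to 0.180 FPKM in mock and also rose (0.96 ± 0.25, limma adjusted p = 0.0125), without a call. UNE15, a gene known from a mutant with unfertilised embryo sacs, had 0.615 to 1.69 FPKM under ABA and 0.339 to 0.907 FPKM in mock (0.37 ± 0.14, limma adjusted p = 0.0552, and 0.0291 without 1 h or 0.0381 without 3 h). AT2G03850 had 0.165 to 1.33 FPKM under ABA and 0.3005 to 0.820 FPKM in mock (0.15 ± 0.16, limma adjusted p = 0.461). UNE15 has a long annotated transcript that shares 8.12% of its 50-base words with other genes.

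Beside ATECP31, 6 genes were silent. AT4G13230 (LEA_4) came nearest to the limit of 1 FPKM, with 0.417 to 0.977 FPKM under ABA and 0.169 to 0.975 FPKM in mock. AT5G27980 reached 0.169 FPKM under ABA and 0.229 FPKM in mock, AT5G53260 reached 0.180 FPKM under ABA and 0.0955 FPKM in mock, and AT5G53270 reached 0.0747 FPKM under ABA and was listed at 0 in all mock pools. AT2G03740 (LEA_4) reached 0.0431 FPKM under ABA and 0.0424 FPKM in mock, and AT3G53770 (LEA_3) was listed at 0 in all ABA pools and reached 0.195 FPKM in mock. AT5G53260 and AT5G53270 are neighbours, 596 bases apart, and share 12.9 and 7.53% of their 50-base words with each other, so reads can be split between them. None of the silent genes passed the filter, so no effect of ABA was tested in them. Just outside the limit lay AT2G03850 and UNE15, with highest pools of 1.33 and 1.69 FPKM. Just inside the induced class lay M10 and AT2G33690 with averaged effects of 1.40 and 1.59, and just outside it lay DI21 by its averaged effect (0.96, with 5 higher calls in the authors' deposited table) and RAB28 by its number of calls (1.73, with 3 higher calls there). AT3G22490 (1.63, with no call) and AT2G42560 (2.58, with 2 higher calls) also missed the induced class by their number of calls. With limits of 0.5 or 2 FPKM in place of 1 FPKM, 5 or 9 genes were silent.

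AT2G03740 and AT5G53260 are shown because they were silent although the stretch before the start holds the ABRE core. Marked as above, they lie at chr2:1143989-1144238 (minus strand) and chr5:21605675-21605924 (minus strand).
AT2G03740: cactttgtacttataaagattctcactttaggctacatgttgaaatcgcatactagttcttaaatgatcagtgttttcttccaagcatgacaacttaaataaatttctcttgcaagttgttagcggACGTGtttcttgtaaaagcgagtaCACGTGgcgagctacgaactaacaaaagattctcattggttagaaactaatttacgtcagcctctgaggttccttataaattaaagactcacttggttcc
AT5G53260: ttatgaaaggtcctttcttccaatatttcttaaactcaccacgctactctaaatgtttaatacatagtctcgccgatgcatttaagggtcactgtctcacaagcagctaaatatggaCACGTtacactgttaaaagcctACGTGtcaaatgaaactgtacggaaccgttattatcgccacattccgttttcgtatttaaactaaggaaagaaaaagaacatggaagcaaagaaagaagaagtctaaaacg

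The ABRE core was common in front of the LEA genes, and most so in the induced class. In the 300 bases from 250 before to 50 after the annotated start, ACGTG on either strand stood in 29 of the 41 genes, beside 26.7% of 27443 protein-coding genes, with overlapping matches counted as 1. By class it stood in 19 of the 22 induced genes, 7 of the 12 in between and 3 of the 7 silent genes. At least 2 such sites stood in 17 induced genes, 3 in between and 3 silent ones, beside 6.19% of all promoters. In the printed stretches of 250 bases LEA7 has 4 sites, and AT3G02480, AT3G22490, AT2G03740 and AT5G53260 have 2 each. In the window of 300 bases AT3G02480 has 4 sites, and the others keep these counts. The induced genes without the core in this window were AT2G23120, AT2G33690 and COR15B. In the 500 bases before the start codon, a window added after the first was seen, the core stood in 21 of 22 induced genes, 7 of 12 in between and 5 of 7 silent genes, beside 34.8% of all. AT2G33690 was the induced gene without it in either window.

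The G-box CACGTG, which contains the ABRE core, stood in the start window of 16 induced genes, 3 in between and 2 silent genes, beside 7.68% of all promoters. The CBF core CCGAC stood in 14 induced genes, 3 in between and 1 silent gene, beside 15.0% of all. It stood at 2 places in COR15A, LEA7, AT3G53040 and the silent AT5G53270, and at 2 or more in 2.02% of all promoters. COR15B had no such core in this window. The RY core CATGCA, the seed element, stood in 5 induced genes, 1 in between and 1 silent gene, beside 9.72% of all. No test was made between classes, and a match of letters is not a binding site. The silent genes were neither the longest nor the shortest, with 120 to 256 codons and a median of 176, against 68 to 480 codons and a median of 151.5 in the induced class and 91 to 635 and a median of 191.5 in between.

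**Figure D3:**
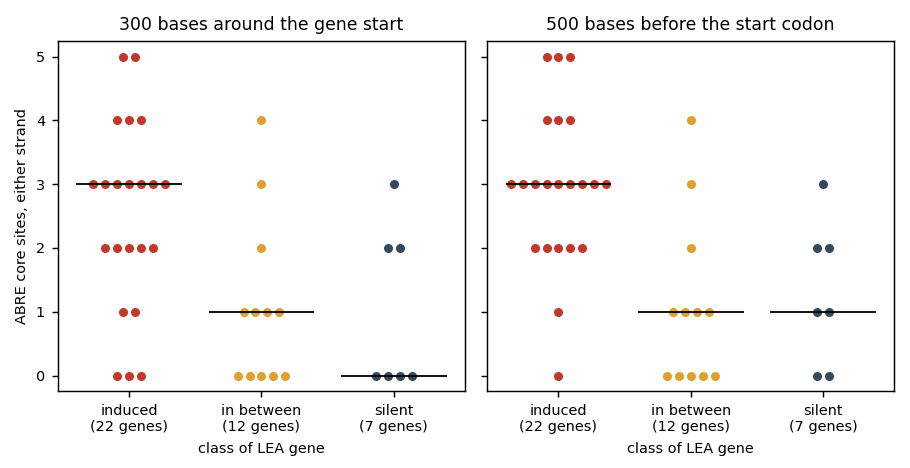
Number of ABRE core sites per gene, on either strand, in the 300 bases around the annotated gene start (left) and the 500 bases before the start codon (right), by class; each point is a gene and the line is the median. The median is 3 in the induced class in both windows, 1 in between in both, and 0 (left) or 1 (right) in the silent class, where 3 of 7 genes hold 2 or more sites.

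The induced genes mostly peaked early in the course. Of the 22, the highest ABA pool was at 1 h in 4, at 3 h in 12, at 6 h in 2, at 9 h in 2 and at 12 h in 2. At 24 h the ABA level was 3.96 to 66.3% of the highest ABA pool, with a median of 39.9%. COR15B (3.96%), COR15A (11.7%), AT2G33690 (16.0%) and LEA4-5 (17.1%) had the smallest shares and AT2G23110 (66.3%) the largest.

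**Figure D4:**
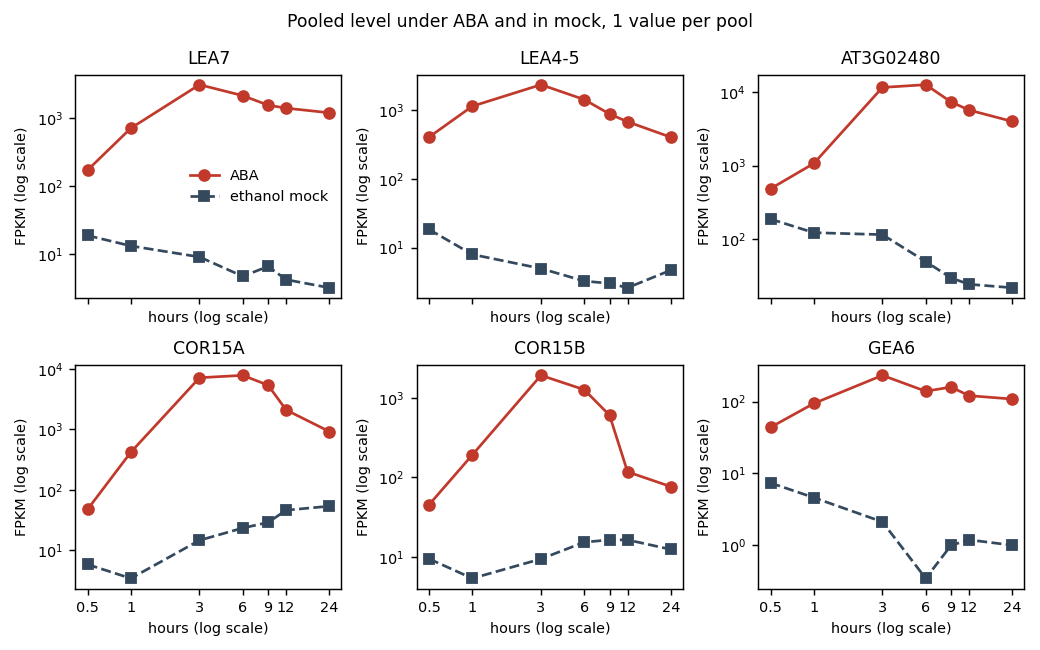
Pooled FPKM (log axis) against hours (log axis) under ABA (red circles) and in ethanol mock (grey squares) for LEA7, LEA4-5, AT3G02480, COR15A, COR15B and GEA6, with 1 value per pool and no error. Under ABA the highest value lies at 3 or 6 h in each panel; in mock COR15A was lowest at 1 h (3.40 FPKM) and highest at 24 h (53.5 FPKM), while AT3G02480 was highest at 0.5 h (189 FPKM) and lowest at 24 h (22.05 FPKM).

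The difference from mock was nevertheless larger late than in the first hour in many LEA genes, 11 of them in the induced class. The difference did not keep growing over the course. The median effect of the 34 tested genes was 0.98 at 0.5 h, 3.22 at 3 h and 2.42 at 24 h. The mean effect at 9, 12 and 24 h was larger than that at 0.5 and 1 h in 14 of the 34 genes and smaller in none (limma, adjusted p under 0.05; 1 gene, AT2G46140, was smaller at an unadjusted p under 0.05), beside 6.63 and 7.72% of all genes tested. Among the 14, AT2G42560 and AT3G22490 reached 1 FPKM in no mock pool and AT3G53040 and AT5G44310 in only 1. These passed the filter through their ABA pools, and what this adds to the count was not tested. Without the 0.5 h pools 9 genes passed, without 1 h 20, and with no filter on low values 1. AT3G02480 had the largest gain (5.47 ± 0.52, limma adjusted p = 0.00119), followed by LEA7 (3.58 ± 0.59), AT3G17520 (3.44 ± 0.54) and EM1 (2.97 ± 0.43). COR15A (0.99 ± 1.15) and COR15B (-0.06 ± 0.94) did not pass (limma adjusted p = 0.617 and 0.976), nor did LEA4-5 (1.47 ± 0.72, limma adjusted p = 0.213, but 2.78 and 0.028 without 1 h). The smallest value was that of AT2G46140, at -1.17 ± 0.37 (limma adjusted p = 0.0699), and it passed as smaller late without 9 h (-1.51, limma adjusted p = 0.0271), as did LEA3 without 12 h (-1.43, limma adjusted p = 0.0274).

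The mock level itself changed with time in many of these genes. Against log2 of hours, 21 of the 34 genes fell in mock and 2 rose (limma, adjusted p under 0.05), beside 14.9 and 14% of all genes tested. The steepest falls were those of AT3G02480 (-0.59 ± 0.06 per doubling of time), LEA18 (-0.49 ± 0.05), AT3G15670 (-0.42 ± 0.06) and GEA6 (-0.41 ± 0.08). Some of the genes that fell lay near or under 1 FPKM in mock throughout. Between the 0.5 h and 24 h mock pools AT3G22490 went from 0.427 to 0.0305 FPKM and AT2G42560 from 0.977 to 0.0242 FPKM. ECP63 went from 1.08 to 0.114 FPKM. COR15A (0.66 ± 0.07, limma adjusted p = 0.00463) and LEA3 (0.34 ± 0.08, limma adjusted p = 0.018) rose. These counts rest on the first times: without 0.5 h 5 genes fell and 1 rose, and without 1 h 11 fell and 1 rose. GEA6 was lost without 0.5 h (limma adjusted p = 0.0925), while AT3G02480, LEA18, AT3G15670 and COR15A kept their calls when any time was left out.

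Among the 22 induced genes, the change in mean log2 level between the early (0.5 and 1 h) and the late (9 to 24 h) pools was positive under ABA in 17 and negative in mock in 19, with both in 14. The median change was 0.90 under ABA and -1.10 in mock. In 14 genes the change in mock was the larger in size. For AT3G02480 the changes were 2.93 under ABA and -2.54 in mock, for LEA18 0.26 under ABA and -2.08 in mock, and for COR15A 3.94 under ABA and 2.95 in mock.

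**Figure D5:**
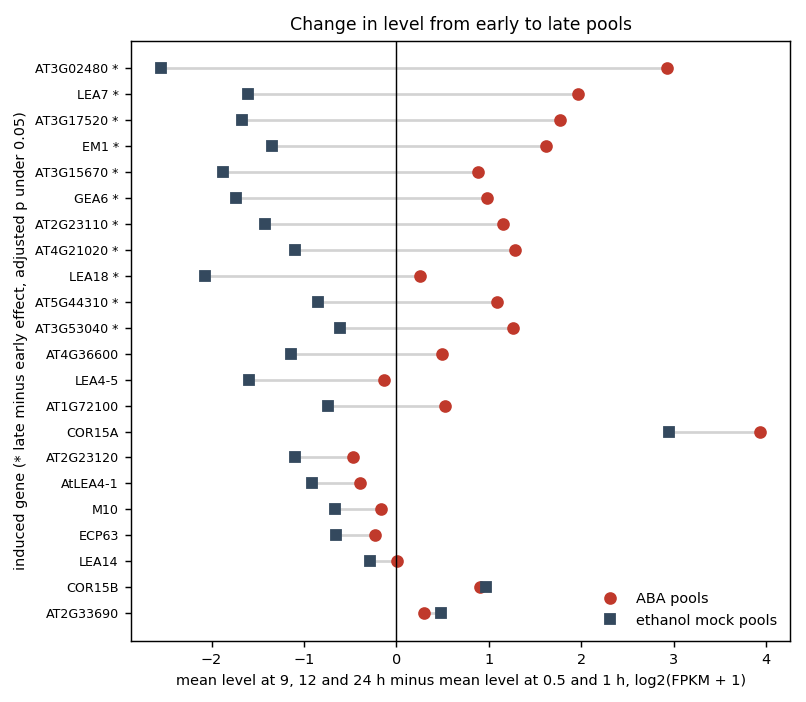
Change in mean log2(FPKM + 1), late (9, 12 and 24 h) minus early (0.5 and 1 h), in the ABA pools (red circles) and the ethanol mock pools (grey squares) for the 22 induced genes, ordered by the difference of the pair, which is the late minus early ABA effect; asterisks mark an adjusted p under 0.05. Most mock points lie left of 0, and COR15A lies right of it in both treatments, at 3.94 under ABA and 2.95 in mock.

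Some of the widest differences carry no call. Over the 7 times there were 113 cases of a LEA gene with at least 5 FPKM under ABA and at least 8 times its mock level, and the authors' deposited table leaves 11 of them, in 7 genes, without a call. GEA6 at 6 h had 139 FPKM under ABA against 0.339 FPKM in mock, EM1 at 9 h 33.7 FPKM under ABA against 0.189 FPKM in mock, and AT2G23110 at 12 h 37.3 FPKM under ABA against 0.270 FPKM in mock. AT4G36600 at 6 h had 32.5 FPKM under ABA against 0.0649 FPKM in mock. AT2G42560 was without a call at 3, 6, 9 and 24 h, with 10.6 FPKM under ABA against 0.0527 FPKM in mock at 3 h. The other cases were AT1G72100 and ECP63 at 6 h, with 6.48 and 6.57 FPKM under ABA against 0.0886 and 0.0389 FPKM in mock, and AT2G23110 at 6 h. In all 11 the mock level was at or under 0.372 FPKM. The authors' deposited table calls 17 of the 28 cases at or under that level, which is by choice the highest mock level among the cases without a call. AT2G42560 missed the induced class by its number of calls.

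The dehydrins, the LEA family left out here, were likewise mostly higher under ABA. Of 10, 9 were higher (median averaged effect 2.74), 8 met the rule for induced genes and none was silent, beside 22 induced and 7 silent of the 41. Over all genes tested 23.9% were higher. The rule for induced genes was met by 4.3% of all expressed entries, and 25.7% of all protein-coding entries were silent. The difference between the families was not tested. RAB18 (6.19 ± 0.80), LTI30 (3.94 ± 0.41), ERD10 (3.27 ± 0.29), XERO1 (2.99 ± 0.24) and LEA (2.78 ± 0.34) had the largest averaged effects, and AT1G54410 (-0.10 ± 0.12), AT4G38410 (0.81 ± 0.15) and AT4G39130 (1.83 ± 0.19) the smallest.

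Of 20 regulators known to act on LEA genes, 14 could be tested. By the same limma test 9 were higher under ABA and none lower, beside 23.9 and 23.2% of all genes tested. Only 1, VAL1, was lower at an unadjusted p under 0.05. CBF3 (2.89 ± 0.35), ABF3 (2.09 ± 0.17), ABF2 (1.85 ± 0.12), CBF1 (1.78 ± 0.49) and CBF2 (1.70 ± 0.39) had the largest averaged effects, and VAL1 (-0.20 ± 0.08), EEL (-0.13 ± 0.10) and VAL2 (-0.02 ± 0.08) the smallest, none of which passed. The effect on CBF1, CBF2 and CBF3 was smaller late than early (late minus early -3.30, -2.63 and -2.32, limma adjusted p = 0.00366, 0.000709 and 0.0045). CBF1 had 72.5 FPKM under ABA at 0.5 h and 0.222 FPKM under ABA at 24 h, against 2.56 and 0.0797 FPKM in mock at these times. CBF1 to CBF3 are related neighbours, and whether reads were split between them was not tested. ABI5, the factor that binds the ABRE in seeds and seedlings, ranged from 3.90 to 11.2 FPKM under ABA and from 1.25 to 2.05 FPKM in mock, with its highest pool at 3 h (1.55 ± 0.17). The seed factors stayed low, with a highest pool of 0.811 FPKM under ABA and 0.367 FPKM in mock for ABI3, and 0.674 FPKM under ABA and 0.0598 FPKM in mock for FUS3. The authors' deposited table calls ABI3 higher at 5 times and FUS3 at 1.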

How the data were processed

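The authors made RNA-seq libraries from total RNA and, per the submitters' processing notes, used FastQC and STAR with the TAIR10 genome, without versions. The quantifier, the use of strand and the authors' test are not given in the sources. The deposited FPKM values, a unit inferred from the values, pool the 2 libraries of a group, and the table also carries the authors' calls of significance per time.

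Here limma 3.58.1 (R 4.3.3, eBayes with trend) was fitted to log2(FPKM + 1) of the 20034 genes that reached 1 FPKM in 2 or more pools, with Benjamini-Hochberg adjustment and a threshold of 0.05. The fits asked for the ABA effect averaged over times, its late (9 to 24 h) minus early (0.5 and 1 h) value, and the mock slope on log2 hours. Error comes from the spread between times, taken as independent without a test of that, and real change over time adds to it. No test at a single time was possible. The pseudocount understates fold changes of low genes. The fits were tested on simulated data. Depth per pool was judged from the sums and the low-value steps given with the results.

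Gene models and promoter sequences were read from RefSeq TAIR10.1, which matched all 41 loci. Overlaps and 50-base words shared between transcripts were counted there. All 41 genes are named; values in all pools are given for induced genes reaching 50 FPKM, the highest gene of each family, genes called lower at 2 or more times and a pair of neighbours with 1 silent. Membership goes by locus and family, but this group of genes, the lists and the rules were chosen with earlier results of these data known. Alternatives were another pseudocount (0.1), no filter, upper-quartile scaling, no trend, each time left out, a length trend removed, and other limits for silent genes. Planned protein composition was not analysed here.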

Additional observations from a re-analysis of the deposited data

Results flagged for a closer look

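The ABA effect differed between the late and the early times, by the limma test of that difference, in 14 LEA genes. The late minus early effect, on the log2 scale, was 5.47 in AT3G02480, 3.58 in LEA7, 3.44 in AT3G17520, 2.97 in EM1, 2.76 in AT3G15670 and 2.72 in GEA6. It was 2.57 in AT2G23110, 2.54 in AT2G42560, 2.37 in AT4G21020 and 2.33 in LEA18. It was 1.94 in AT5G44310, 1.87 in AT3G53040, 1.58 in DI21 and 1.50 in AT3G22490. Of the 14, AT2G42560, AT3G22490, AT3G53040 and AT5G44310 passed the filter on low values through their ABA pools. Without the 0.5 h pools the call was lost in AT3G15670 (1.66), AT4G21020 (1.65), DI21 (1.34), AT3G53040 (1.16) and AT3G22490 (1.10), with limma adjusted p of 0.0543, 0.053, 0.0794, 0.0586 and 0.106. AT3G15670 was also lost without 9 h (2.50, adjusted p = 0.0501) and without 12 h (2.68, adjusted p = 0.0591), and AT3G22490 without 12 h (1.29, adjusted p = 0.0536).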

How the results depend on the processing

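The number of LEA genes higher in the averaged effect was 29 and ranged from 27 to 30 over all alternatives, with 0 lower in each. The late minus early count of 14 ranged from 9 to 20 when a time was left out and fell to 1, AT3G02480, with no filter on low values. The count smaller late was 0, and 0 to 1 when a time was left out. In mock, 21 genes fell and 2 rose; with no filter 12 fell and 1 rose, and with a time left out 5 to 23 fell and 1 to 3 rose. With no filter, limma tested many more genes near 0; the cause of the loss was not tested. The silent count was 5 to 9 under the other limits, and the median effect at 24 h was 2.42 as deposited and 2.48 with the length trend removed. No effect that passed its test as reported changed sign under any alternative run, whereas some that did not pass changed sign when a time was left out, among them the averaged effect of LEA3 (0.16). UNE15 passed in the averaged effect without the trend (adjusted p = 0.0489), and AT1G72100 (late minus early 1.27, limma adjusted p = 0.0501) passed with a pseudocount of 0.1 and with upper-quartile scaling (adjusted p = 0.0265 and 0.034). No paired analysis was possible because the deposited columns are pooled and carry no replicate numbers; leaving out a replicate could not be run for the same reason. Depth limits what can be said of the silent genes, which stayed under 1 FPKM. Pooled values give no library error, so each p-value measures the spread between 7 times in these seedlings.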
